A study of Homo sapiens with 3 samples.

Results

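The tubulins, kinesins and microtubule-associated proteins were examined in SKOV3 ovarian cancer cells depleted of the H3K9 methyltransferase G9a. Members were chosen by gene symbol alone, from the array annotation. They were the α-, β- and γ-tubulins, the kinesins with a KIF symbol, the MAP7 family and the structural MAPs. The end-binding and plus-end proteins, GAS2L1, GAS2L3 and stathmin (STMN1) were also included. This gave 181 of 54675 probe sets, or 79 of 19775 genes, made up of 17 tubulins, 41 kinesins and 21 other proteins that bind microtubules or tubulin. SKOV3 cells that stably expressed G9a shRNA1, G9a shRNA2 or an shRNA against luciferase (Luc shRNA, the control) after puromycin selection were measured on 1 Affymetrix array each. All 3 were made by lentiviral transduction of this 1 cell line. With 1 array per condition there was no replicate error and no test between replicates, so every difference given here is between single arrays.

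Microtubules are hollow polymers of α- and β-tubulin that grow and shrink at their ends and form the mitotic spindle and the tracks of intracellular transport. γ-tubulin starts new microtubules at the centrosome, kinesins walk along them or take them apart, and MAPs bind their surface or tips and set their stability and their use by motors. Tubulin is the target of the taxanes, which are standard drugs in ovarian cancer, and STMN1 works in the opposite sense to most MAPs, since it sequesters tubulin and favours disassembly.

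The measurements were MAS5 signals on a linear scale, compared with the Luc shRNA array as log2 ratios, where 1 unit is a 2-fold difference. A probe set passed the filter when the highest of its 3 signals reached the median of all values, 11.96, and counted as bright when that signal reached the 75th percentile, 89.7. Of the 79 member genes, each represented by its brightest probe set on average, 69 passed and 52 were bright. The other 10 (KIF1A, KIF2B, KIF6, KIF24, KIF25, KIF27, MAP6, TUBA8, TUBB1 and TUBB7P) were under the filter on all 3 arrays and are given no ratio. Between the 2 G9a shRNA arrays the log2 ratios of the 90 bright member probe sets differed with an SD of 0.27, and those of the 49 dimmer ones that passed with an SD of 0.91. The first value is the nearest available measure of error for bright members, and it also contains real differences between the shRNAs. Quantile normalization shifted the log2 ratios of bright probe sets with G9a shRNA2 by a median of -0.14. Because both ratios of a gene use the same Luc shRNA array, an error on that array would move both alike.

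EHMT2 encodes G9a. At its brightest probe set the signal was 29.7 (G9a shRNA1) and 79.2 (G9a shRNA2), against 182 (Luc shRNA), and a dimmer probe set gave log2 ratios of -0.21 and -0.75. The epithelial keratins KRT7, KRT8 and KRT18, EPCAM, MUC1, ERBB2 and PAX8 were bright on the arrays. Of these EPCAM was furthest from the control, with log2 ratios of 1.06 and 0.98. KRT7, KRT8, KRT18 and MUC1 were also higher with both shRNAs, ERBB2 was lower with both, and PAX8 had no common direction. The dimmer KRT19 gave 1.90 and 1.84. MUC16 was under the filter, and none of the 3 measured leukocyte markers passed it. Of 4 endothelial markers 1 passed, PECAM1, with signals of 29.9 (G9a shRNA1) and 28.5 (G9a shRNA2), against 15.4 (Luc shRNA), and the part of these markers in the results was not tested. The 3′ to 5′ ratio of the β-actin control probe sets, a sign of RNA integrity, was 1.83 (G9a shRNA1) and 1.47 (G9a shRNA2), against 3.68 (Luc shRNA), and that of GAPDH was 1.12 (G9a shRNA1) and 1.14 (G9a shRNA2), against 1.15 (Luc shRNA). The part of the β-actin difference in the ratios below was not tested.

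Most members differed little between conditions. Both log2 ratios lay within 0.5 of 0 for 41 of the 52 bright member genes, or 78.8%, against 75.4% of all bright genes. Among bright members those furthest from the control were MAP7D2 and GAS2L3, both lower with each G9a shRNA, and MAP7, which was higher. TUBA1A, MAP1B, TUBG2, KIF11, KIF15 and STMN1 were lower by smaller amounts, and KIFC2 and KIF16B were higher by smaller amounts. The abundant tubulin isotypes were close to the control. The mitotic kinesins had ratios that lay mostly below 0, and none of them was past 2-fold at its brightest probe set.

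Bases upstream of the transcription start are shown for the bright members furthest from the control and, below, for a pair of mitotic kinesins. The 250 bases before the first listed RefSeq start (GRCh38.p14) are given for MAP7D2 (chrX:20116908-20117157, minus strand), MAP7 (chr6:136550423-136550672, minus strand) and GAS2L3 (chr12:100593368-100593617, plus strand), with every CG dinucleotide in capitals, because MAP7D2 and MAP7, at opposite ends of their family, are both CG-rich there and GAS2L3 is not.
MAP7D2: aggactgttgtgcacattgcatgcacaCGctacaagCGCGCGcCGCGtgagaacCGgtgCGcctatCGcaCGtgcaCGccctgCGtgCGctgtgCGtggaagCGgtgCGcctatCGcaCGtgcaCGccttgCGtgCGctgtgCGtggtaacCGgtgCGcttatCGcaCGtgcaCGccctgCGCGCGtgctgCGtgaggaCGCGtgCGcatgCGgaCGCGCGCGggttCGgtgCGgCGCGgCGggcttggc
MAP7: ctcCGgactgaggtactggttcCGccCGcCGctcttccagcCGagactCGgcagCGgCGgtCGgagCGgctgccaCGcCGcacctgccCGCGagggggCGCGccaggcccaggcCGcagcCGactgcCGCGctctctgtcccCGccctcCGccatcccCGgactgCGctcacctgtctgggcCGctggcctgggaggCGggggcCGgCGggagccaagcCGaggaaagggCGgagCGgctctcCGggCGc
GAS2L3: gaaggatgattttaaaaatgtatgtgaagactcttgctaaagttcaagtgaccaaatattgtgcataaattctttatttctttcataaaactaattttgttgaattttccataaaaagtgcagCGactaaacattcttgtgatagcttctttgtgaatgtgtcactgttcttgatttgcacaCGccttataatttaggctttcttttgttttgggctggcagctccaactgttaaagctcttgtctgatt
The MAP7D2 stretch holds 44 CG dinucleotides, a number reached by 0.769% of all 35116 promoters in the table. The MAP7 stretch holds 33, reached by 8.15% of them, and the GAS2L3 stretch holds 2, against a median of 11. MAP7 has 4 listed starts and MAP7D2 has 2, and the arrays do not show which of them was used. A count of CG is a description of these letters only.

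MAP7 proteins bind the microtubule lattice and recruit the transport motor KIF5B and its relatives. MAP7D2, the member of this family best known from brain, had signals of 13.3 (G9a shRNA1) and 25.2 (G9a shRNA2), against 114 with Luc shRNA. It was thus 8.53-fold lower with G9a shRNA1 and 4.51-fold lower with G9a shRNA2, log2 ratios of -3.09 and -2.17. MAP7D2 was bright on the Luc shRNA array alone. The G9a shRNA1 signal lay just above the median of all values, so the size of that fold rests on a value near the background. MAP7D2 has 1 probe set on the array.

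MAP7 itself, the epithelial member also called ensconsin, stood on the other side of the control. Its brightest probe set had signals of 176 (G9a shRNA1) and 186 (G9a shRNA2), against 73.8 with Luc shRNA, which was 2.39-fold and 2.52-fold higher. A second MAP7 probe set had 60.9 and 48.0 with G9a shRNA1 and G9a shRNA2, against 23.3 with Luc shRNA. The third had 52.6 and 42.2 with these shRNAs, against 16.0 with Luc shRNA. All 3 MAP7 probe sets were therefore past 2-fold higher with both shRNAs, with log2 ratios from 1.04 to 1.72. MAP7 was bright on the G9a shRNA arrays alone, at its brightest probe set, and its other probe sets were dim on all arrays.

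The remaining family members, which also bind KIF5B, were near the control. MAP7D1 had signals of 319 (G9a shRNA1) and 366 (G9a shRNA2), against 325 with Luc shRNA. MAP7D3 had 212 with G9a shRNA1 and 259.9 with G9a shRNA2, against 200.4 with Luc shRNA at its brightest probe set. Its other probe sets had 88.5 and 95.5 with the G9a shRNAs, against 78.5 with Luc shRNA, and 33.4 and 25.9, against 23.0. MAP7D3 was higher than the control at all 3 probe sets with both shRNAs, but by at most 0.54 on the log2 scale. The partner motor KIF5B is described with the transport kinesins.

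**Figure D1:**
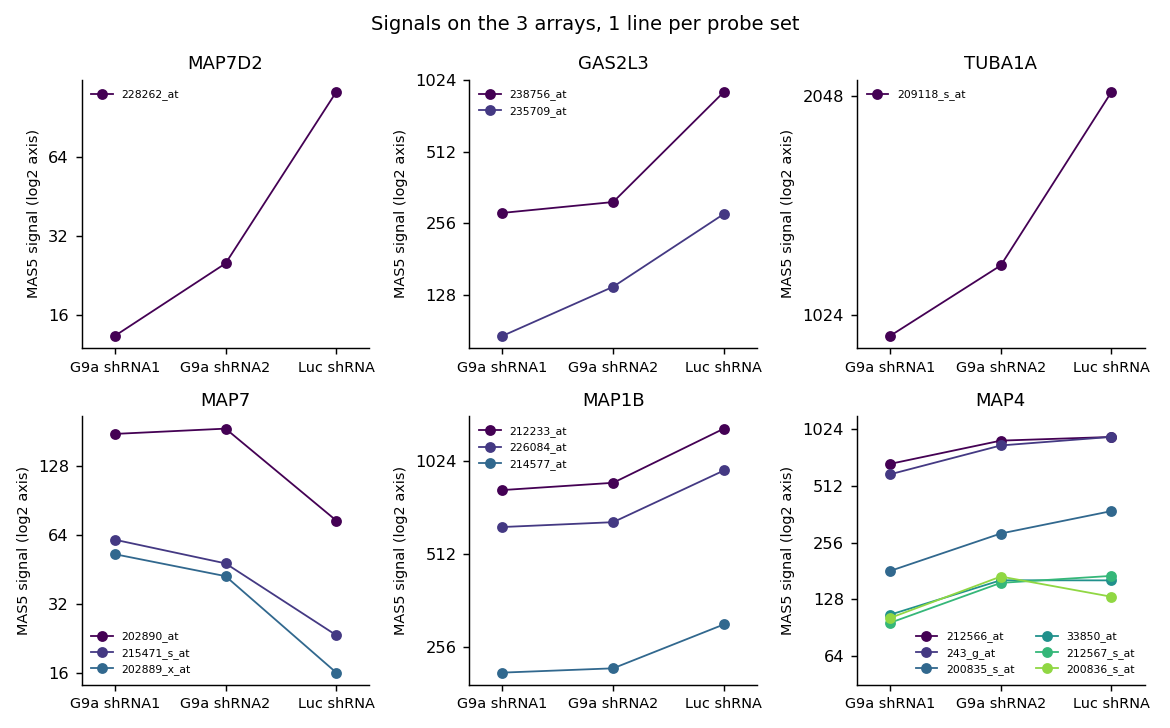
MAS5 signal (y axis, log2 axis) on the G9a shRNA1, G9a shRNA2 and Luc shRNA arrays (x axis) for 6 member genes, 1 line per probe set past the filter. MAP7D2, GAS2L3, TUBA1A and MAP1B are highest on the Luc shRNA array, MAP7 is lowest on it at all 3 probe sets, and MAP4 is lowest on the G9a shRNA1 array at all 6.

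GAS2L3 encodes a protein that links actin filaments to microtubules and works in cytokinesis. Its brightest probe set had signals of 283 (G9a shRNA1) and 314 (G9a shRNA2), against 915 with Luc shRNA. A second probe set had 85.6 with G9a shRNA1 and 138 with G9a shRNA2, against 279.8 with Luc shRNA. The log2 ratios were -1.69 and -1.54 at the first and -1.71 and -1.02 at the second, past 2-fold lower at both. Its relative GAS2L1, another actin and microtubule linker, did not follow. GAS2L1 gave 0.09 and 0.35 as log2 ratios at its brightest probe set.

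Counted over genes past the filter, 2 of 69 members (MAP7 and TUBA4B) were past 2-fold higher with both shRNAs, or 2.90%, against 2.57% of all 13192 genes, and 3 (MAP7D2, GAS2L3 and TUBB2B) were lower, or 4.35%, against 1.66%. Among the 52 bright members, 1 was higher with both, against 0.611% of all 8348 bright genes, and 2 were lower, against 0.467%. Of these, MAP7 was bright on the G9a shRNA arrays alone and MAP7D2 on the Luc shRNA array alone. When 1 shRNA past 2-fold was enough and the second had only to share its direction, 1 bright member was higher, against 1.71% of all bright genes, and 3 were lower (MAP7D2, GAS2L3 and TUBA1A), against 2.01%. Counts of 1 to 3 genes are too small to set the family apart from these shares. The median of the mean log2 ratio of both shRNAs over the 69 members was -0.05, against 0.05 over all genes.

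**Figure D2:**
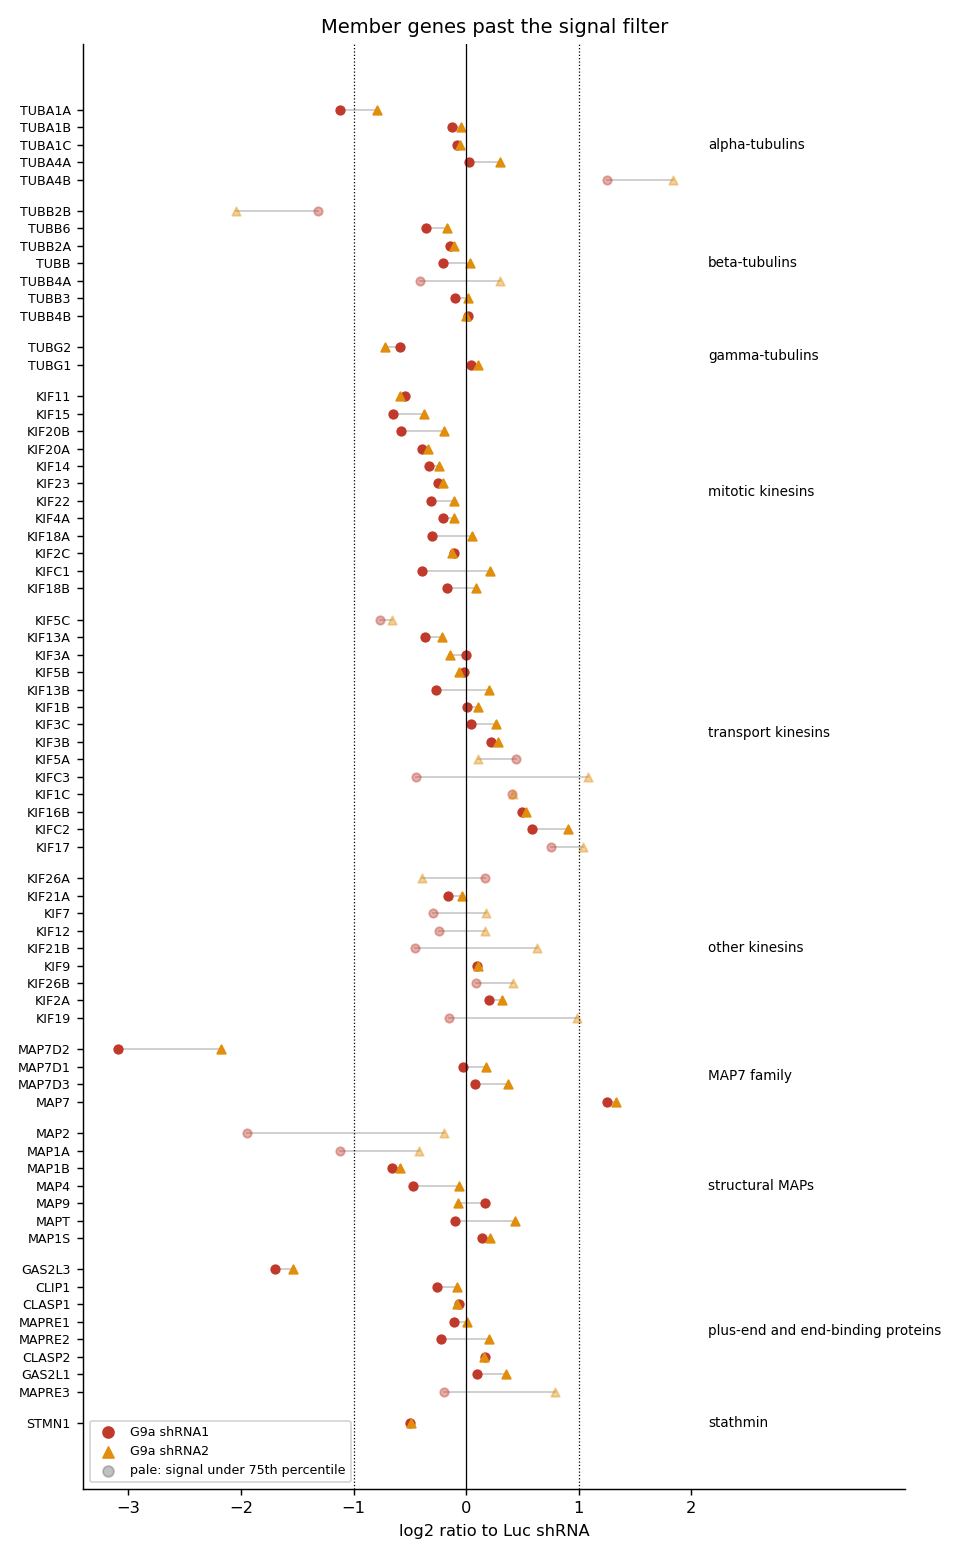
Log2 ratio to Luc shRNA (x axis) of the 69 member genes past the filter, as circles (G9a shRNA1) and triangles (G9a shRNA2), grouped by role; pale symbols have a highest signal under the 75th percentile, and dotted lines mark 2-fold. MAP7D2 at -3.09 and -2.17 and MAP7 at 1.26 and 1.33 form the ends of their family, and the 12 mitotic kinesins lie between -0.65 and 0.22.

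Among bright α-tubulins TUBA1A was below the control and the others were nearly level with it, and the dim TUBA4B was above it. TUBA1A, the isotype prominent in developing neurons, had signals of 958 (G9a shRNA1) and 1198 (G9a shRNA2), against 2077 with Luc shRNA. It was 2.17-fold lower with G9a shRNA1 and 1.73-fold lower with G9a shRNA2. TUBA1A has 1 probe set past the filter, whose name ends in _s_at. TUBA1B, a ubiquitous isotype, had 9227 with G9a shRNA1 and 9781 with G9a shRNA2, against 10076 with Luc shRNA at its brightest probe set. Its next probe sets had 7421 and 7963 with the G9a shRNAs, against 7691 with Luc shRNA, and 6456 and 7806, against 8045. The last 2 had 6313 and 7456, against 7681 with Luc shRNA, and 6305 and 6752, against 6825. None of these 5 differed by more than 0.32 on the log2 scale. TUBA1C, the close paralogue of TUBA1B, had 6399 with G9a shRNA1 and 6517 with G9a shRNA2, against 6768 with Luc shRNA, and 6210 and 6616, against 6803, at another probe set. All 7 probe sets of TUBA1B and TUBA1C past the filter end in _x_at. Affymetrix gives this name to probe sets that may also bind other transcripts, so these isotypes cannot be separated with certainty. TUBA4A, an α-tubulin with its own bright probe set, gave 0.03 and 0.30. TUBA4B, next to it in name but listed separately, had 36.8 with G9a shRNA1 and 55.0 with G9a shRNA2, against 15.4 with Luc shRNA. Its log2 ratios of 1.26 and 1.84 were past 2-fold higher with both shRNAs, at a low signal.

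Among β-tubulins, no bright member was past 2-fold. TUBB, the main isotype of many cells, had signals of 4732 (G9a shRNA1) and 5596 (G9a shRNA2), against 5448 with Luc shRNA. Its other probe sets had 3451 and 4344 with the G9a shRNAs, against 3989 with Luc shRNA, and 2166 and 2752, against 2693. All 3 TUBB probe sets were lower with G9a shRNA1, by 0.20 to 0.31 on the log2 scale, and higher with G9a shRNA2, by 0.03 to 0.12, but all 3 were below the control with G9a shRNA2 after median centring and 1 was after quantile normalization. TUBB4B, a ubiquitous isotype also used in cilia, had 3926 with G9a shRNA1 and 3863 with G9a shRNA2, against 3875 with Luc shRNA, and 3636 and 3589, against 3654, at another probe set. TUBB3, a neuronal β-tubulin that many tumours express and that is known for its link to taxane resistance, gave -0.09 and 0.02 at its brightest probe set and -0.26 and -0.41 at another. TUBB6 gave -0.36 and -0.17, and TUBB2A gave -0.15 and -0.11. TUBB2B, a β-tubulin of neurons, was past 2-fold lower with both, with signals of 19.8 (G9a shRNA1) and 11.95 (G9a shRNA2), against 49.3 with Luc shRNA. That probe set is also of the _x_at kind and is dim, and a probe set annotated to both TUBB2A and TUBB2B gave 0.22 with each shRNA. Over the 14 tubulins past the filter the median log2 ratio was -0.14 with G9a shRNA1 and -0.02 with G9a shRNA2, against 0.00 and 0.12 over all genes.

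The γ-tubulins, which nucleate microtubules, differed from each other. TUBG1 had signals of 1622 (G9a shRNA1) and 1700.2 (G9a shRNA2), against 1578 with Luc shRNA. TUBG2 had 66.2 with G9a shRNA1 and 60.1 with G9a shRNA2, against 99.2 with Luc shRNA, log2 ratios of -0.58 and -0.72. TUBG2 was bright on the Luc shRNA array alone, and its G9a shRNA signals lay in the range where ratios of the dimmer members differed between shRNAs with the SD of 0.91.

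**Figure D3:**
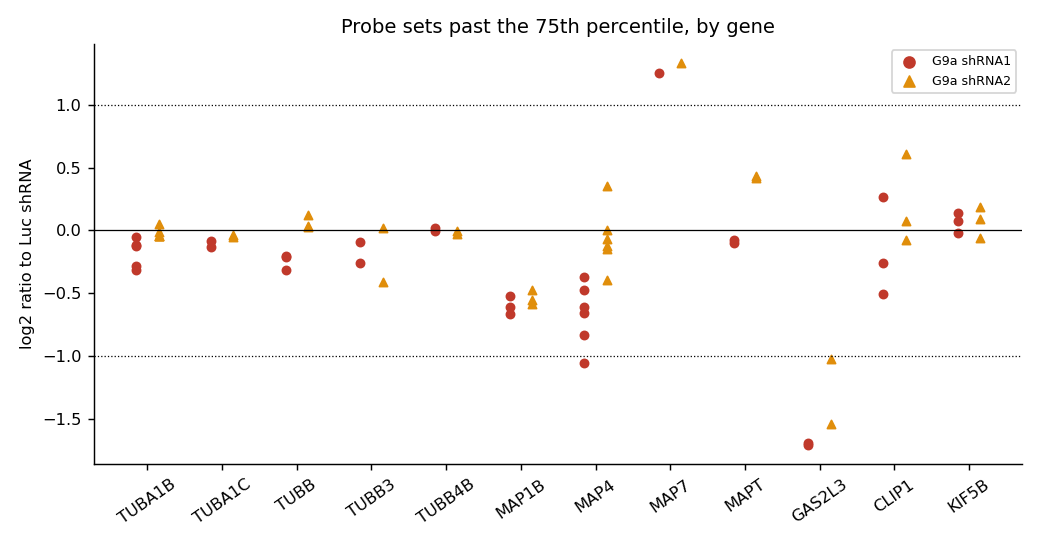
Log2 ratio to Luc shRNA (y axis) of each bright probe set of 12 member genes (x axis), as circles (G9a shRNA1) and triangles (G9a shRNA2); dotted lines mark 2-fold. The 3 MAP1B probe sets lie together between -0.66 and -0.47, whereas those of MAP4 lie from -1.06 to -0.37 with G9a shRNA1 and from -0.40 to 0.36 with G9a shRNA2.

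Mitotic kinesins build the spindle, move chromosomes and complete cytokinesis. All 12 that were listed were bright, and none was past 2-fold with either shRNA at its brightest probe set, which the counts below use. With G9a shRNA1 all 12 had log2 ratios below 0, against 49.5% of all bright genes, and with G9a shRNA2 9 had, against 32.5%. After quantile normalization these counts were 12, against 47.3% of all bright genes, and 10, against 47.8%. Their median log2 ratio was -0.32 with G9a shRNA1 and -0.16 with G9a shRNA2, against 0.00 and 0.13 over all bright genes. Genes that follow the cell cycle together are not independent points.

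KIF11, the motor that pushes the spindle poles apart, had signals of 408 (G9a shRNA1) and 395 (G9a shRNA2), against 594 with Luc shRNA. KIF15, which can back up KIF11, had 196 with G9a shRNA1 and 238 with G9a shRNA2, against 308 with Luc shRNA. By the mean of both ratios these lay furthest below the control among mitotic kinesins, with log2 ratios of -0.54 and -0.59 for KIF11 and of -0.65 and -0.37 for KIF15. KIF20A, a cytokinesis motor, had 842 with G9a shRNA1 and 873 with G9a shRNA2, against 1103 with Luc shRNA. KIF18B, which acts at the plus ends of astral microtubules, had 845 with G9a shRNA1 and 1014 with G9a shRNA2, against 953 with Luc shRNA. KIF18B, KIF18A and KIFC1 were those below the control with G9a shRNA1 and above it with G9a shRNA2, with log2 ratios of -0.17 and 0.09, -0.30 and 0.05, and -0.40 and 0.22; KIF18A lay below it with both after either rescaling, and KIF18B after median centring. The centralspindlin motor KIF23 gave -0.25 and -0.21, and -0.51 and -0.12 at a dim probe set. The midbody motor KIF14 gave -0.33 and -0.24, and -0.09 and -0.05 at a second probe set. The depolymerase KIF2C gave -0.11 and -0.12, with 0.05 and 0.16 at a second probe set. Dim probe sets of KIF22 and KIF20B had no common direction, with -0.05 and 0.20 for KIF22 and 0.39 and -1.07 for KIF20B.

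Mitotic genes outside the kinesin list lay below the control to a similar extent. Over 30 such genes, all bright, the median log2 ratio was -0.23 with G9a shRNA1 and -0.16 with G9a shRNA2, with 24 and 21 of them below 0. They include CENPE, a kinesin motor without a KIF symbol, which gave -0.26 and -0.20. Over 15 genes of S phase and replication the medians were 0.08 and 0.27, and CCNE1, which encodes cyclin E, had 417 with G9a shRNA1 and 418 with G9a shRNA2, against 181 with Luc shRNA. The part of cell cycle distribution in the kinesin ratios was not tested.

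**Figure D4:**
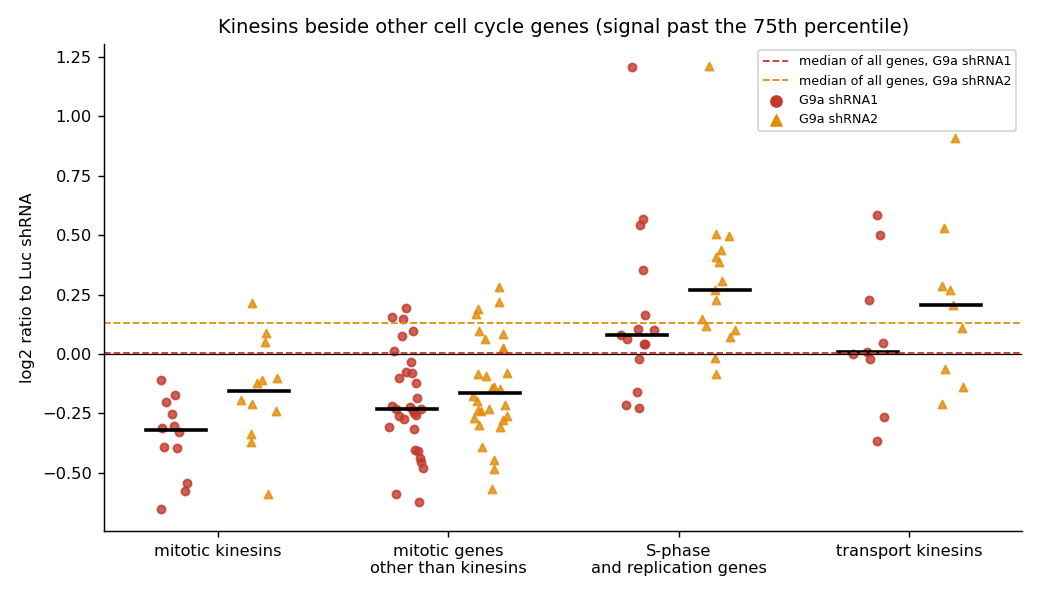
Log2 ratio to Luc shRNA (y axis) of bright genes in 4 lists (x axis), as circles (G9a shRNA1) and triangles (G9a shRNA2); black bars are list medians and dashed lines are the medians of all bright genes. The mitotic kinesins have medians of -0.32 and -0.16, and the other mitotic genes -0.23 and -0.16, whereas the S-phase genes have 0.08 and 0.27.

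Promoters of late cell cycle genes often carry CCAAT boxes and the cell cycle genes homology region, TTTGAA. Of the 12 mitotic kinesins, 10 had CCAAT on either strand within 250 bases before the first RefSeq start, and 5 had TTTGAA. Over the first start of all genes the shares were 33.0% and 13.6%. Among the 11 transport kinesins with a promoter in the table, these numbers were 3 and 1. Among 24 mitotic genes outside the kinesin list they were 19 and 15, so the motifs are not particular to the kinesins. The stretches of the pair of mitotic kinesins furthest below the control, KIF11 (chr10:92592880-92593129, plus strand) and KIF15 (chr3:44761544-44761793, plus strand), and of the tubulin gene furthest below it among bright ones, TUBA1A (chr12:49189081-49189330, minus strand), are printed with both motifs in capitals.
KIF11: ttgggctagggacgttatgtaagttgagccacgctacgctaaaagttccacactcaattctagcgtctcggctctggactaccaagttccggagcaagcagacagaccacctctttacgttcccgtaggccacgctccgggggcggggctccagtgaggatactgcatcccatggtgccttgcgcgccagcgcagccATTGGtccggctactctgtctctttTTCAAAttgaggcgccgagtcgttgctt
KIF15: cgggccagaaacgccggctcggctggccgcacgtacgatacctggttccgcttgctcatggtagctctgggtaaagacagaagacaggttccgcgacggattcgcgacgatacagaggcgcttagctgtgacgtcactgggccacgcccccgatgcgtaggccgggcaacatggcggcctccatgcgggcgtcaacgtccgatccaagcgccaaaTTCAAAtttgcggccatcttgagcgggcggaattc
TUBA1A: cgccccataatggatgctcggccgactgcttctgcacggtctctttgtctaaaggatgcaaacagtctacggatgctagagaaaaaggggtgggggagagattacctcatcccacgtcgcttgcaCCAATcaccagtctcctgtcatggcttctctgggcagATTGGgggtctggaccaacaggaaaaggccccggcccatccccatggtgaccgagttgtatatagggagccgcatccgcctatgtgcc
KIF11 has CCAAT 53 bases and TTTGAA 28 bases before its start, and KIF15 has TTTGAA 35 bases before its start and no CCAAT; all 3 matches are on the other strand, so they are printed as ATTGG and TTCAAA. TUBA1A has CCAAT at 125 bases and, on the other strand, at 88 bases, and no TTTGAA. No match of one motif overlaps a match of the other in these stretches. A match is a description of the letters and not a bound site.

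Transport kinesins carry vesicles, organelles and ciliary cargo. Of the 14 that passed the filter, none was past 2-fold with both shRNAs. KIF5B, the conventional kinesin heavy chain of most cells and the motor that MAP7 proteins recruit, had signals of 1991 (G9a shRNA1) and 1934 (G9a shRNA2), against 2021 with Luc shRNA. Its other probe sets had 1305 and 1314 with the G9a shRNAs, against 1237 with Luc shRNA, and 133 and 137, against 121. KIF5B thus differed by at most 0.19 on the log2 scale at any of its 3 probe sets. KIF13A, an endosome motor, had 597 with G9a shRNA1 and 664 with G9a shRNA2, against 768 with Luc shRNA. At further probe sets it had 54.0 and 111 with the G9a shRNAs, against 118 with Luc shRNA, 21.0 and 55.1, against 34.2, and 17.85 and 15.3, against 23.5. These KIF13A probe sets were all lower with G9a shRNA1, and the third was higher with G9a shRNA2.

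Of these 14 transport kinesins 6 had log2 ratios below 0 with G9a shRNA1 and 4 with G9a shRNA2, against 49.8% and 37.0% of all genes past the filter. KIFC2, known from neuronal transport in mouse, gave log2 ratios of 0.58 and 0.91 at its bright probe set, and 0.75 and 1.21 at a dimmer one. The first of these probe sets was bright on the G9a shRNA arrays alone. KIF16B, an early endosome motor, gave 0.50 and 0.53, and 0.66 and 0.35 at a second probe set. KIF3A, a motor subunit that pairs with either KIF3B or KIF3C, gave -0.43 and -0.02 at its second probe set and differed by at most 0.14 at its brightest. KIF3B gave 0.23 and 0.29 and KIF3C gave 0.04 and 0.27. KIF1C, a motor of Golgi and endosomal transport, gave 0.41 with each shRNA, and KIF17, another motor of cilia and dendrites, gave 0.76 and 1.04 at a low signal. The widest gap between the shRNAs in this group was that of KIFC3, with -0.44 and 1.08 at a signal under the 75th percentile. Neuronal KIF5C gave -0.77 and -0.66 and KIF5A gave 0.44 and 0.10, both also dim. The other KIF5C probe sets gave -3.53 and -0.74, and -0.92 and 2.19, and thus had no common direction.

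Of the other kinesins 9 passed the filter and none was past 2-fold with either shRNA at its brightest probe set. KIF2A, a depolymerase of microtubule ends, had signals of 534 (G9a shRNA1) and 579 (G9a shRNA2), against 462 with Luc shRNA, and 41.0 and 53.5, against 61.3, at another probe set, so its probe sets lay on opposite sides of the control. KIF21A, which slows microtubule growth at the cell cortex, had 329 with G9a shRNA1 and 358 with G9a shRNA2, against 367 with Luc shRNA. A second KIF21A probe set had 138 and 126 with the G9a shRNAs, against 199.99 with Luc shRNA. KIF9, a motor of motile cilia, gave 0.10 with each shRNA, which turned to -0.02 with G9a shRNA2 after quantile normalization. Other KIF9 probe sets lay below the control, with -0.19 and -0.12 at a bright one and -0.27 and -0.23 at a dimmer one, and the dimmest gave 0.24 and -0.89. KIF26A gave 0.17 and -0.39 at its brightest probe set, which was dim. A dimmer KIF26A probe set gave -3.13 and -1.50, past 2-fold lower with both shRNAs. It passed the filter on the Luc shRNA array alone.

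Structural MAPs bind along the microtubule wall. MAP1B, a MAP of growing axons that is also found in other cells, had signals of 824 (G9a shRNA1) and 870.3 (G9a shRNA2), against 1304 with Luc shRNA. The other MAP1B probe sets had 625 and 649 with the G9a shRNAs, against 954 with Luc shRNA, and 211 and 218, against 302. All 3 were lower with both shRNAs, with log2 ratios between -0.66 and -0.47, and the G9a shRNA arrays lay within 0.08 of each other at the brightest one.

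MAP4, the ubiquitous MAP of non-neuronal cells, was lower with G9a shRNA1 and closer to the control with G9a shRNA2. Its brightest probe set had signals of 671 (G9a shRNA1) and 893 (G9a shRNA2), against 934 with Luc shRNA. The next probe sets had 591 and 841 with the G9a shRNAs, against 934 with Luc shRNA, and 181 and 286, against 377. The last 3 had 106 and 162, against 161 with Luc shRNA, 96.1 and 157, against 171, and 102 and 169, against 132. At all 6 probe sets the G9a shRNA1 array was the lowest of the 3. Tau (MAPT), a MAP of axons, gave -0.10 and 0.43, and MAP9, a spindle MAP, gave 0.17 and -0.07. MAP1A and MAP2, MAPs of mature neurons, were past 2-fold lower with G9a shRNA1 only, with -1.12 and -0.42 for MAP1A and -1.95 and -0.20 for MAP2, at signals under the 75th percentile.

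Plus-end proteins ride on or anchor growing microtubule tips. MAPRE1 (EB1), which recruits most of the others, had signals of 1558 (G9a shRNA1) and 1684 (G9a shRNA2), against 1678 with Luc shRNA, and 553 and 602, against 493, at a second probe set. CLIP1, which links tips to membranes and the cortex, had 612 with G9a shRNA1 and 696 with G9a shRNA2, against 734 with Luc shRNA. Further CLIP1 probe sets had 120.1 and 179 with the G9a shRNAs, against 171 with Luc shRNA, 150.1 and 190.4, against 125, and 33.8 and 25.2, against 36.4. The CLIP1 probe sets disagreed in direction, with log2 ratios from -0.51 to 0.27 with G9a shRNA1 and from -0.53 to 0.61 with G9a shRNA2. The tip stabilizers CLASP1 and CLASP2 gave -0.06 and -0.08, and 0.17 and 0.16, at their brightest probe sets. A dim CLASP1 probe set gave -0.39 and -0.46. Other bright CLASP2 probe sets gave 0.54 and 0.21, and 0.24 and -0.48, and a dim one gave 1.91 and 0.13. The CLASP2 probe sets thus disagreed in direction with G9a shRNA2. At its brightest probe set no gene of this group other than GAS2L3 had a log2 ratio beyond 0.5 with G9a shRNA1, and MAPRE3, which was dim, was the only other one beyond it with G9a shRNA2 (0.79).

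STMN1, the tubulin-sequestering protein, had signals of 513 (G9a shRNA1) and 517 (G9a shRNA2), against 724 with Luc shRNA, log2 ratios of -0.50 and -0.49. A dim STMN1 probe set had 15.9 and 16.3 with the G9a shRNAs, against 11.01 with Luc shRNA, in the other direction. A probe set annotated to STMN1 and a microRNA gene, and so not counted as a member, gave -0.97 and -1.04.

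Other microtubule genes were set against the same shares of all genes past 2-fold with both shRNAs, 2.57% higher and 1.66% lower. Past the filter, none of 22 dynein and dynactin subunits, 9 kinesin partners, 17 nucleation genes or 19 genes of tubulin folding and modification was past 2-fold with both shRNAs. Of 29 other microtubule-associated proteins 1 was, namely DCLK1, a kinase of the doublecortin family that binds microtubules, with signals of 29.0 (G9a shRNA1) and 61.3 (G9a shRNA2), against 170.4 with Luc shRNA. The median log2 ratios of these 5 lists lay between -0.14 and -0.03 with G9a shRNA1 and between 0.03 and 0.28 with G9a shRNA2. Those of all genes past the filter were 0.00 and 0.12. After quantile normalization the list medians with G9a shRNA2 lay between -0.09 and 0.19, against 0.01 over all genes, and only that of the kinesin partners was above 0.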

How the data were processed

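RNA from SKOV3 cells with G9a shRNA1, G9a shRNA2 or Luc shRNA was hybridized to 1 Affymetrix array each. The authors made the probe set intensities with MAS5, and these were deposited on a linear scale; the MAS5 version and scaling are not given in the sources used here. Median signals were 12.3 with G9a shRNA1, 11.8 with G9a shRNA2 and 11.7 with Luc shRNA. The intensities were used without further scaling. Probe sets were named through GEO's platform annotation: 41097 had 1 gene symbol, 1801 several and 11777 none, and only the first kind was used. Of these, 54 had no match in the RefSeq gene table and kept their symbol. Genes were represented by the probe set that was brightest on average (log2 scale). Calls were ratios past 2-fold, with no test. An alternative fit used limma 3.58.1 (R 4.3.3) and joined both G9a shRNA arrays into 1 group. Computation used Python 3.11.15, numpy 2.4.6, pandas 2.3.3 and matplotlib 3.10.9. The calling step was run on simulated data with known changes. Those changes were well past 2-fold, in bright probe sets and with little noise. That run checks the computation only and not how reliable the calls given here are. Members and lists were chosen with earlier results of these data known. Named with signals are members past 2-fold with at least 1 shRNA at high signal and the 2 members of each group with the highest mean signal, with all their probe sets past the filter. Dimmer members past 2-fold are named with ratios, and DCLK1, CCNE1 and CENPE come from lists of other genes. The signals of KIF11, KIF15, TUBA4B and TUBB2B, and KIFC2, KIF16B and the remaining members given by ratio alone, were chosen after their values were seen. The number of arrays limits the precision.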

Additional observations from a re-analysis of the deposited data

How the results depend on the processing

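No paired analysis was possible because each condition has 1 array. The median log2 ratios of mitotic kinesins (-0.22) and of tubulins (-0.07) were below 0 under all 10 alternatives, at -0.32 to -0.16 and at -0.15 to -0.02. These alternatives are not independent checks. The other filters and the floor could not change the mitotic kinesin value, since all of these genes were bright on every array. The settings with 1 shRNA alone use the parts of the same mean. The median of all members (-0.05) was -0.16 with G9a shRNA1 alone, 0.02 with G9a shRNA2 alone and -0.13 after median centring. With G9a shRNA2 alone it was -0.02 after quantile normalization, so its sign with that shRNA depended on the scaling. Over all genes past the filter G9a shRNA2 gave 0.12 unscaled and 0.01 after quantile normalization. Counts of members past 2-fold changed more. The 2 genes higher with both shRNAs became 4 with no filter, 1 with the filter at the 75th percentile, 4 with G9a shRNA2 alone, 0 at 3-fold and 4 when probe sets were counted. The 3 genes lower with both became 6 with G9a shRNA1 alone, 5 at 1.5-fold, 1 at 3-fold (MAP7D2) and 5 by probe sets. With at least 1 shRNA past 2-fold, the 3 higher genes became 8 with no filter, 1 with the stricter filter, 1 at 3-fold and 7 by probe sets, and the 6 lower genes became 3 with the stricter filter, 3 with G9a shRNA2 alone, 11 at 1.5-fold and 12 by probe sets. limma, with the lone Luc shRNA array assumed to vary like the G9a shRNA arrays, gave 0 members in either direction at an adjusted p under 0.05 (lowest 0.354), against 3 higher and 5 lower at an unadjusted p under 0.05; over all 30446 probe sets it gave 0 (lowest 0.296), against 2915 unadjusted. MAP7D2, GAS2L3, MAP7 and TUBA1A kept their direction under median centring and quantile normalization, which could hardly have turned out otherwise. Centring moved every ratio by -0.02 (G9a shRNA1) or -0.13 (G9a shRNA2). Quantile normalization moved bright probe sets by medians of 0.00 and -0.14, and the ratios of these genes were much larger. A floor at the median signal left these genes unchanged, since all their signals lay above it. When probe sets with names ending in _s_at or _x_at were left out, TUBA1A and TUBB2B were no longer among the lower genes. KIF26A and KIF13A entered them in that setting. Signals near the background limit what can be said of TUBB2B, TUBA4B, MAP1A, MAP2 and KIF17.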

Other observations

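A pair of probe sets annotated to both TUBA3C and TUBA3D, α-tubulin genes known from testis, was measured but not counted, since each has more than 1 gene symbol. The first had signals of 154 (G9a shRNA1) and 171 (G9a shRNA2), against 243 with Luc shRNA. The second had 183 with G9a shRNA1 and 202 with G9a shRNA2, against 269 with Luc shRNA. Both lay below the control with each shRNA, with log2 ratios from -0.65 to -0.41. Both are of the _x_at kind, and the share of other α-tubulin transcripts in their signal was not tested.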
